A study of Solanum lycopersicum with 6 samples.

Results

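WRKY proteins are plant transcription factors named after a short conserved peptide in their DNA-binding domain. They bind the W box, a short DNA element in the promoters of many defence genes, and their own genes often carry W boxes, so that the family regulates itself and its targets in a network. Many WRKY genes are transcribed within minutes to hours of wounding, pathogen attack, salicylic acid or abiotic stress, and single family members can activate or repress transcription. The expression of 10 WRKY genes linked to stress and defence was examined in tomato leaf, in wild-type plants and in a mutant of KRYPTONITE (KYP). KYP is a histone methyltransferase that deposits H3K9me2, a mark of silent heterochromatin. The 10 genes were chosen by identifier from the 35821 rows of the count table, and each identifier was found once. No table used here pairs these identifiers with gene symbols, so each gene is called by its identifier and no individual role is given.

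The RNA came from the fourth leaf of M82 tomato plants aged 4 weeks, grown at 24 °C with 16 h of light and without any stress treatment. The 2 groups were the wild type (WT) and a *kyp* mutant in the same cultivar, with 3 biological replicates each. The *kyp* mutant was a donated line, its allele is not given in the sources used here, and no further *kyp* line was measured. A leaf is a mixture of cell types, so that a higher level in a bulk library can come from more cells of a type or from more RNA per cell, and these cannot be told apart.

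The 6 libraries held from 7283885 to 11012421 counts, and 3 counts, the smallest signal considered here, equalled from 0.264 to 0.422 CPM. CPM are counts divided by the library total, put on a common scale for all libraries with the TMM method of edgeR, and they depend on gene length, so levels are compared between libraries and not between genes. Each of the 10 plastid marker genes of green tissue (among them *psbA* and *rbcL*) was detected in every library. Their summed share was 0.430% to 0.555% of the counts in WT and 0.342% to 0.392% in *kyp*, whereas mitochondrial genes took 0.0422% to 0.0460% in WT and 0.0693% to 0.110% in *kyp*. These shares separate the genotypes without overlap, and their part in the results below was not tested. The identifier of *KYP* was not established here, and its counts are not reported.

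Of the 10 WRKY genes, 4 were higher in *kyp* (Solyc08g067360.3, Solyc03g095770.3, Solyc05g015850.4 and Solyc08g008280.3) and none was lower, at an adjusted p under 0.05 in edgeR's quasi-likelihood test over 20154 genes. Over all tested genes the same test placed 24.9% past the threshold, 14.8% in the direction of higher and 10.2% of lower expression in *kyp*. With library totals alone in place of TMM these directions were nearly even, with 2674 and 2637 genes, and the WRKY counts were the same. All 10 genes passed the filter on low counts, but Solyc08g067360.3 reached the filter level in 0 of 3 WT libraries and Solyc05g015850.4 in 1 of 3. Both entered the test through their level in *kyp*, so they could hardly be tested without being higher there. Of the 8 genes that passed the filter level in every WT library, 2 were higher in *kyp*, where 11.4% of the 18717 tested genes that met this condition were higher and 10.9% lower. The median log2 fold change was 0.26 over the 10 genes, against -0.01 over all tested genes, and 0.18 over these 8, against -0.03 over the 18717. For the count of 0 lower genes, edgeR gave 0 also at an unadjusted p under 0.05, and DESeq2 and limma-voom gave 0 as well.

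**Figure D1:**
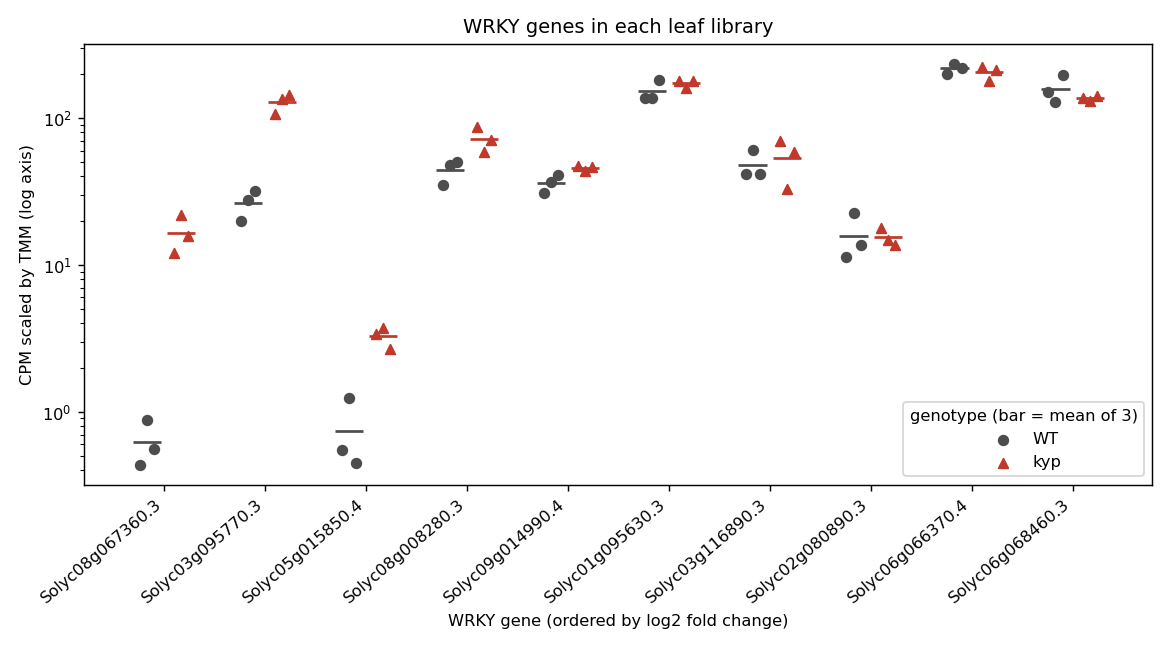
Level of the 10 WRKY genes in each library, as CPM scaled by TMM on a log axis. Grey circles are the 3 WT libraries, red triangles the 3 *kyp* libraries and bars their means, and the genes are ordered by log2 fold change. For the 5 genes on the left every *kyp* library lies above every WT library, and for the 5 on the right the genotypes overlap.

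The steepest change was that of Solyc08g067360.3, on chromosome 8 by its identifier. It had 4, 10 and 5 counts in the WT libraries and 86, 200 and 159 counts in the *kyp* libraries. In CPM these were 0.437, 0.880 and 0.558 in WT and 12.1, 22.0 and 15.7 in *kyp*. The gene was thus barely above the limit of detection in WT leaf and clearly detected in all *kyp* leaves. Even the lowest *kyp* library stood 13.7-fold above the highest WT library. The mean rose from 0.625 ± 0.229 CPM to 16.6 ± 4.99 CPM (SD, n = 3 each), a log2 fold change of 4.70 ± 0.34 (SE) with an adjusted p of 4.97e-05 in edgeR's test. The 95% interval of the fold ran from 15.2 to 44.4. Over all 3 libraries the WT count was 19, for which the exact Poisson interval is 0.388 to 1.01 CPM, and this interval covers counting error only. Of the tested genes, 2.11% had a larger log2 fold change. Solyc08g067360.3 was tested only through its level in *kyp*, so its p and this share are no separate evidence of a rise.

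Solyc03g095770.3, on chromosome 3, showed the largest change among the genes well expressed in both genotypes. Its level was 20.0, 27.5 and 31.9 CPM in the WT libraries and 106, 134 and 144 CPM in the *kyp* libraries. All *kyp* values were at least 3.33-fold above the highest WT value, while the highest WT library was 1.59-fold above the lowest. The mean went from 26.5 ± 6.01 CPM to 128 ± 19.5 CPM (SD, n = 3 each). The log2 fold change was 2.28 ± 0.18 (SE), a 4.84-fold increase with a 95% interval of 3.64 to 6.44, and the adjusted p was 7.95e-05 by edgeR. By p, the gene ranked 206 of 20154. Solyc08g067360.3, which was tested only through its level in *kyp*, ranked 154.

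Solyc05g015850.4, on chromosome 5, was rare in both genotypes. It received 5, 14 and 4 counts in WT and 24, 34 and 27 in *kyp*, which are 0.547, 1.23 and 0.446 CPM against 3.37, 3.73 and 2.67 CPM. WT replicate 2 was 2.76-fold above the lowest WT library and still 2.17-fold below the lowest *kyp* library. The log2 fold change was 2.08 ± 0.38 (SE), with an adjusted p of 0.00498 by edgeR and a 95% interval of the fold from 2.30 to 7.74. Its size rests partly on WT replicate 2, since the log2 fold change was 2.71 without that library. The gene remained called in each of the 6 fits that left out 1 library. It entered the test through its level in *kyp*, so these calls are no separate evidence.

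The change of Solyc08g008280.3, also on chromosome 8, was smaller and less firm. The libraries gave 35.1, 47.5 and 50.3 CPM in WT and 87.3, 58.5 and 70.6 CPM in *kyp*. The groups did not overlap, but *kyp* replicate 2 stood only 1.16-fold above the highest WT library. The gene was 1.62-fold higher in *kyp*, with a log2 fold change of 0.70 ± 0.18 (SE) and an adjusted p of 0.0202 by edgeR. Leaving out WT replicate 1, *kyp* replicate 1 or *kyp* replicate 3 ended the call, with log2 fold changes of 0.56, 0.54 and 0.71 and adjusted p of 0.0626, 0.0661 and 0.0541 in edgeR. The direction was the same in all 6 such fits.

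**Figure D2:**
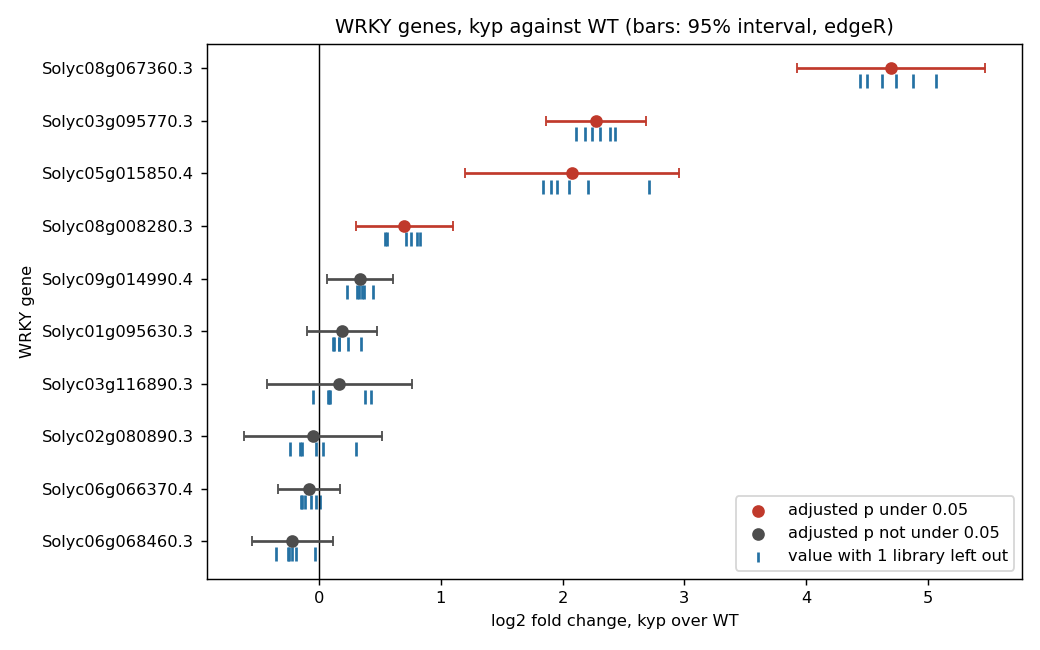
Log2 fold change of each WRKY gene, *kyp* over WT, from edgeR (points) with its 95% interval (bars). Red marks an adjusted p under 0.05, and blue ticks give the value with 1 library left out. The upper 3 genes lie above 1.8 in every fit, while Solyc03g116890.3, Solyc02g080890.3 and Solyc06g066370.4 have ticks on both sides of 0.

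Another gene, Solyc09g014990.4 on chromosome 9, was separated between the genotypes without passing the threshold. It had 30.6, 36.9 and 41.2 CPM in WT and 47.2, 43.8 and 46.1 CPM in *kyp*. Every *kyp* library was above every WT library, by 1.06-fold at the closest pair. The fitted difference was 1.26-fold (log2 fold change 0.34 ± 0.12, SE), with an adjusted p of 0.0729 by edgeR. Without WT replicate 3 the adjusted p was 0.0361, and without WT replicate 1 it was 0.216. In all, 5 of the 10 genes had every *kyp* library above every WT library and 0 had the reverse, where 21.9% and 20.5% of all tested genes did so, 42.4% in either direction. Among the 8 genes at the filter level in every WT library the separation was found for 3, beside 18.5% higher and 22.1% lower among the 18717 tested genes that met the same condition. For 3 libraries against 3, the smallest two-sided p of an exact permutation test is 0.1, so this separation alone cannot pass a threshold of 0.05.

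The 5 other WRKY genes overlapped between the genotypes, and none passed the threshold. Solyc01g095630.3, on chromosome 1, had 137, 137 and 182 CPM in WT and 179.5, 161 and 178 CPM in *kyp*. Its 95% interval allowed a fold between 0.932 and 1.39, the adjusted p was 0.318 by edgeR, and without WT replicate 3, its highest WT library, it was 0.0408. Of its WT libraries, replicates 1 and 2 were nearly equal and lay below all *kyp* libraries, and replicate 3 lay above them all.

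Both members on chromosome 6 had fitted values slightly below 0. Solyc06g066370.4 had 200, 233 and 220 CPM in WT and 223, 179 and 214 CPM in *kyp*, and its interval of the fold, 0.792 to 1.12, was the narrowest of the 10. Solyc06g068460.3 had 151, 129 and 196 CPM in WT and 136, 131 and 141 CPM in *kyp*, with a log2 fold change of -0.22 ± 0.15 (SE) and an adjusted p of 0.305 by edgeR. Its *kyp* libraries were close to each other (coefficient of variation 3.70%), whereas its WT libraries spread over 21.5%. For these 2 genes, changes of more than 1.5-fold in either direction lie outside the 95% interval.

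Solyc03g116890.3 and Solyc02g080890.3 could be compared least well. Solyc03g116890.3, on chromosome 3, had 41.3, 60.4 and 41.3 CPM in WT and 69.4, 32.9 and 59.0 CPM in *kyp*. A single genotype thus covered a 2.11-fold range in *kyp*, with the lowest and the highest of the 6 values both among the mutants. Solyc02g080890.3, on chromosome 2, had 11.3, 22.5 and 13.7 CPM in WT and 17.9, 14.8 and 13.8 CPM in *kyp*. WT replicate 2 was its highest library, and the log2 fold change turned from -0.05 to 0.30 without it. The 95% intervals of the fold were 0.742 to 1.70 and 0.652 to 1.43, and they do not exclude changes of these sizes in either direction.

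**Figure D3:**
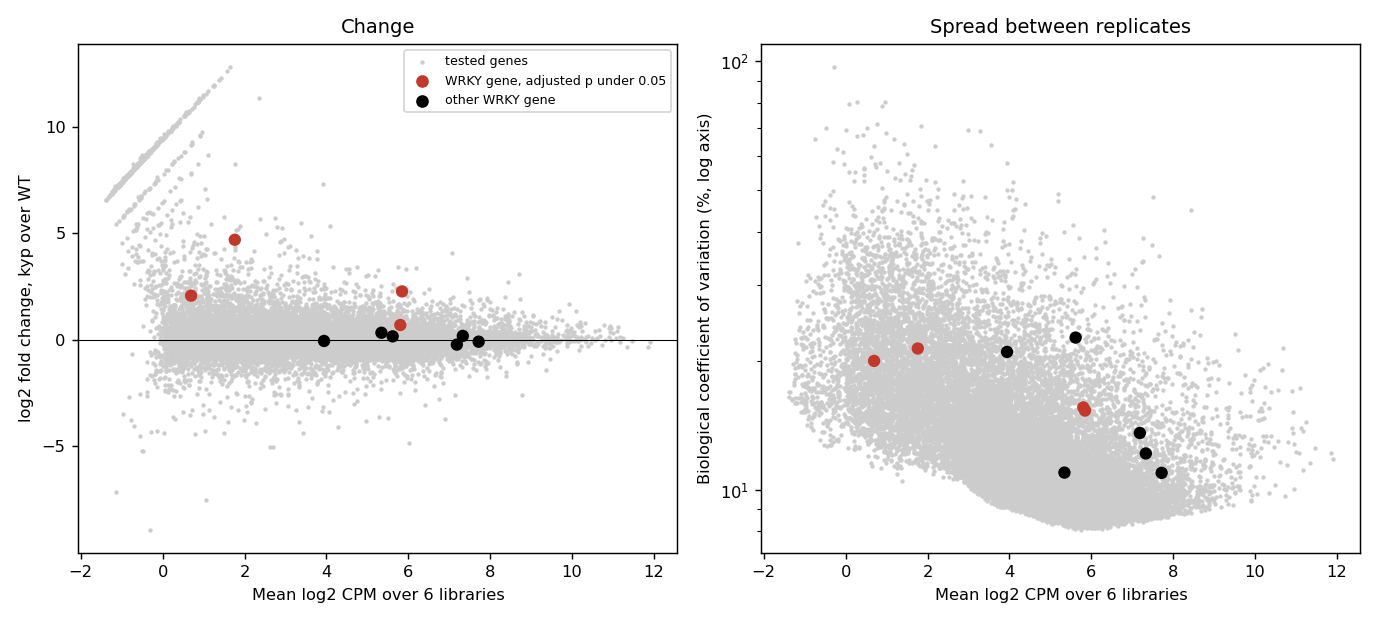
The 10 WRKY genes (red, adjusted p under 0.05; black, the others) among the 20154 tested genes (grey), against the mean log2 CPM of the 6 libraries. The left panel gives the log2 fold change, *kyp* over WT, and the right panel edgeR's biological coefficient of variation on a log axis; 7 of the 10 WRKY genes lie above its median of 12.5%. The diagonal lines of grey points at the upper left are genes with 0 or a few counts in WT. Where all WT counts are 0, the fold depends on the prior count.

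The WRKY genes also differed in how much they varied between libraries of the same genotype. EdgeR's biological coefficient of variation, the spread between replicates beyond counting error, had a median of 15.4% over the 10 genes and of 12.5% over all tested genes. Solyc03g116890.3 (22.6%), Solyc08g067360.3 (21.4%), Solyc02g080890.3 (21.0%) and Solyc05g015850.4 (20.0%) exceeded more than 85% of the tested genes. The last and Solyc08g067360.3 are low in WT, and this coefficient is higher among rare genes in general, as the plot of all tested genes shows. Solyc09g014990.4 and Solyc06g066370.4 were the steadiest, at 11.0% and 10.9%.

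The genes deviated together in WT replicate 1, but not in the other WT libraries. All 10 WRKY genes lay below their own WT mean in WT replicate 1, by a median of 0.25 on the log2 scale, while the median over all tested genes was 0 in the same library. The scaling between libraries holds that median close to 0, so it does not show how unusual the shift is. The share of all tested genes below their own mean in that library was not counted. In WT replicates 2 and 3, 8 and 6 of the 10 genes lay above the WT mean. The 3 deviations of a gene in WT sum to 0, so these values follow partly from replicate 1. Single genes moved in opposite ways between replicates 2 and 3, such as Solyc05g015850.4 (0.77 and -0.51) and Solyc06g068460.3 (-0.28 and 0.33). The *kyp* libraries showed smaller shifts, with medians from -0.06 to 0.06 and 8, 3 and 6 genes above the *kyp* mean. Leaving WT replicate 1 out therefore lowered the log2 fold change of all 10 genes. Without it, the log2 fold changes were 4.50 for Solyc08g067360.3, 2.11 for Solyc03g095770.3 and 1.90 for Solyc05g015850.4, with adjusted p of 0.000461, 0.000353 and 0.0244 by edgeR, and 3 members were called in place of 4.

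**Figure D4:**
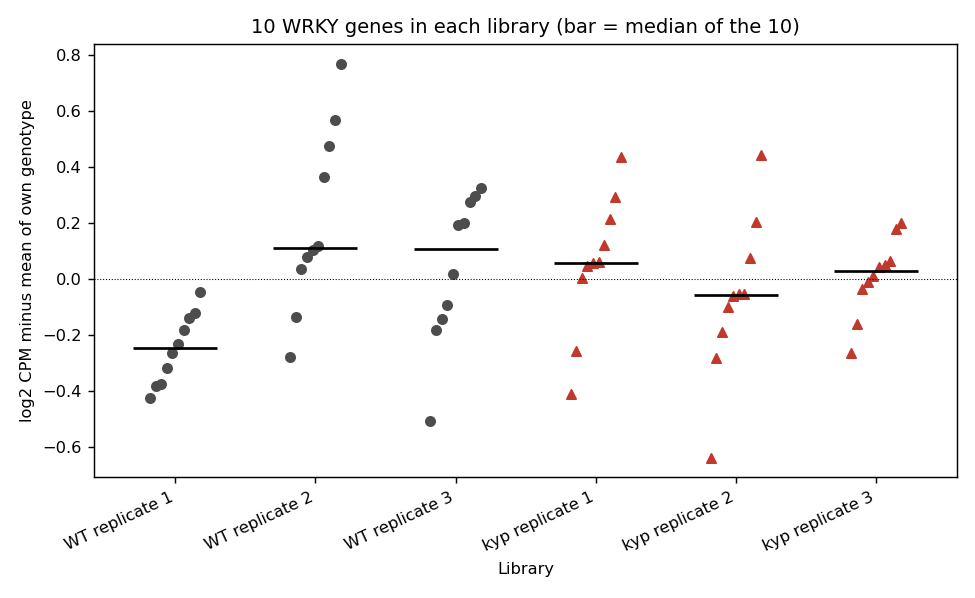
Deviation of each WRKY gene from the mean of its own genotype, in log2 CPM, for each library (10 points a library, bar = their median). All 10 points of WT replicate 1 lie below 0, and the medians of the other 5 libraries lie between -0.06 and 0.11.

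Ratios between 2 genes within a library do not depend on the scaling between libraries. The ratio of Solyc03g095770.3 to Solyc06g068460.3 counts was 0.133, 0.213 and 0.163 in WT and 0.781, 1.02 and 1.02 in *kyp*. The pair therefore went from several counts of the second gene for each count of the first to nearly equal numbers. Solyc03g095770.3 took 3.75% ± 0.488 of the summed counts of the 10 genes in WT and 15.2% ± 2.73 in *kyp* (SD, n = 3 each). Over the same libraries, the share of Solyc06g066370.4 was 31.2% ± 2.66 and 24.1% ± 1.14, and that of Solyc06g068460.3 was 22.6% ± 3.59 and 16.0% ± 0.664. These shares show an unequal change among the members and do not show that a member stayed constant. The ratio of Solyc08g067360.3 to Solyc03g095770.3, the 2 members with the lowest p, also rose, from 0.0238 ± 0.00748 to 0.129 ± 0.0303 (SD, n = 3 each).

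Summed over the 10 genes, the level was 626, 695 and 777 CPM in WT and 882, 781 and 884 CPM in *kyp*. The lowest *kyp* library was just above the highest WT library. Without Solyc03g095770.3 the sums were 606, 668 and 745 CPM against 776, 647 and 740 CPM, and the genotypes overlapped. A single gene therefore carried most of the difference in the sum.

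The position of the members was not used to choose them, and the genes listed next to them in the table were compared in the same fit. Within 2 rows on each side stood 38 genes that carry the same chromosome number, of which 24 were tested. Of these, 5 were higher in *kyp* (20.8%) and 2 were lower (8.33%), beside 14.8% and 10.2% over all tested genes. Their median log2 fold change was -0.13.

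Solyc08g067360.3 and Solyc03g095770.3 each had a called gene listed 2 rows before them. The other 2 called members, Solyc05g015850.4 and Solyc08g008280.3, had none within 2 rows on either side. With 24.9% of all tested genes called in either direction, called neighbours are common, and a link between members and neighbours was not tested. Solyc08g067340.4, next to Solyc08g067360.3, had 11, 39 and 19 counts in WT and 202, 480 and 477 in *kyp*. It went from 2.25 ± 1.12 to 42.8 ± 12.7 CPM (SD, n = 3 each), with a log2 fold change of 4.21 ± 0.34 (SE) and an adjusted p of 9.32e-05 by edgeR. Solyc03g095750.2, next to Solyc03g095770.3, had 1, 3 and 1 counts in WT and 83, 118 and 133 in *kyp*, or 12.6 ± 0.808 CPM (SD, n = 3), with an adjusted p of 9.82e-06 by edgeR. Its WT counts were at or under the floor of 3, so the size of the change is known only roughly, with a ratio of the pooled levels of 74.8 and a counting interval from 31.7 to 232. Solyc03g095750.2 was tested only through its level in *kyp*, so its p is no separate evidence of a rise. Of the genes listed in between, Solyc03g095760.3 had a log2 fold change of -0.02 ± 0.10 (SE), and Solyc08g067350.2 had 0 counts in every library and was not tested. On the other side of Solyc03g095770.3, Solyc03g095780.3 fell by 1.94 on the log2 scale (adjusted p 0.0191 by edgeR), from 3.53 to 0.969 CPM. It entered the test through its level in WT, so this call is no separate evidence of a fall.

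The other neighbours that passed the threshold stood beside members that did not. They were Solyc06g068440.4 near Solyc06g068460.3 (log2 fold change 0.53), Solyc01g095620.3 (0.60) and Solyc01g095650.4 (0.84) near Solyc01g095630.3, and Solyc02g080880.4, which fell by 0.42 on the log2 scale beside Solyc02g080890.3. Their adjusted p in edgeR's test were 0.0244, 0.00320, 0.0329 and 0.0125. A change of the member and a change of its neighbours were thus found together at some places and apart at others.

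A window of 10 rows on each side, added after these neighbours were seen, held 189 genes, of which 124 were tested. In *kyp*, 18 of them (14.5%) were higher and 11 (8.87%) lower, which is near the background of 14.8% and 10.2%. Near Solyc03g116890.3, which did not pass the threshold itself, 4 consecutive rows (Solyc03g116910.3, Solyc03g116920.3, Solyc03g116930.3 and Solyc03g116940.3) were all higher in *kyp*. The first 3 went from 4.35, 5.05 and 6.73 CPM to 12.4, 18.1 and 16.3 CPM, and the fourth had 1, 3 and 2 counts in WT, at or under the floor of 3, and 10, 20 and 31 in *kyp*. The fourth was tested only through its level in *kyp*, so its call is no separate evidence and adds little to the run. Solyc05g015800.3, listed 8 rows before Solyc05g015850.4, went from 2.68 to 108 CPM. Solyc09g015033.1 and Solyc05g015780.1 had 0 counts in every WT library. In *kyp* they had 252, 363 and 447 counts and 46, 154 and 121 counts. Both were likewise tested only through their level in *kyp*, so their calls are no separate evidence. By window, the share of higher genes ran from 0% to 35.3%, the latter around Solyc01g095630.3 (6 of 17 tested genes). The largest fall in these windows was that of Solyc09g014940.3, listed 5 rows before Solyc09g014990.4, from 13.2 to 1.32 CPM. Whether any of these neighbours is itself a WRKY gene is not given in the tables used here.

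**Figure D5:**
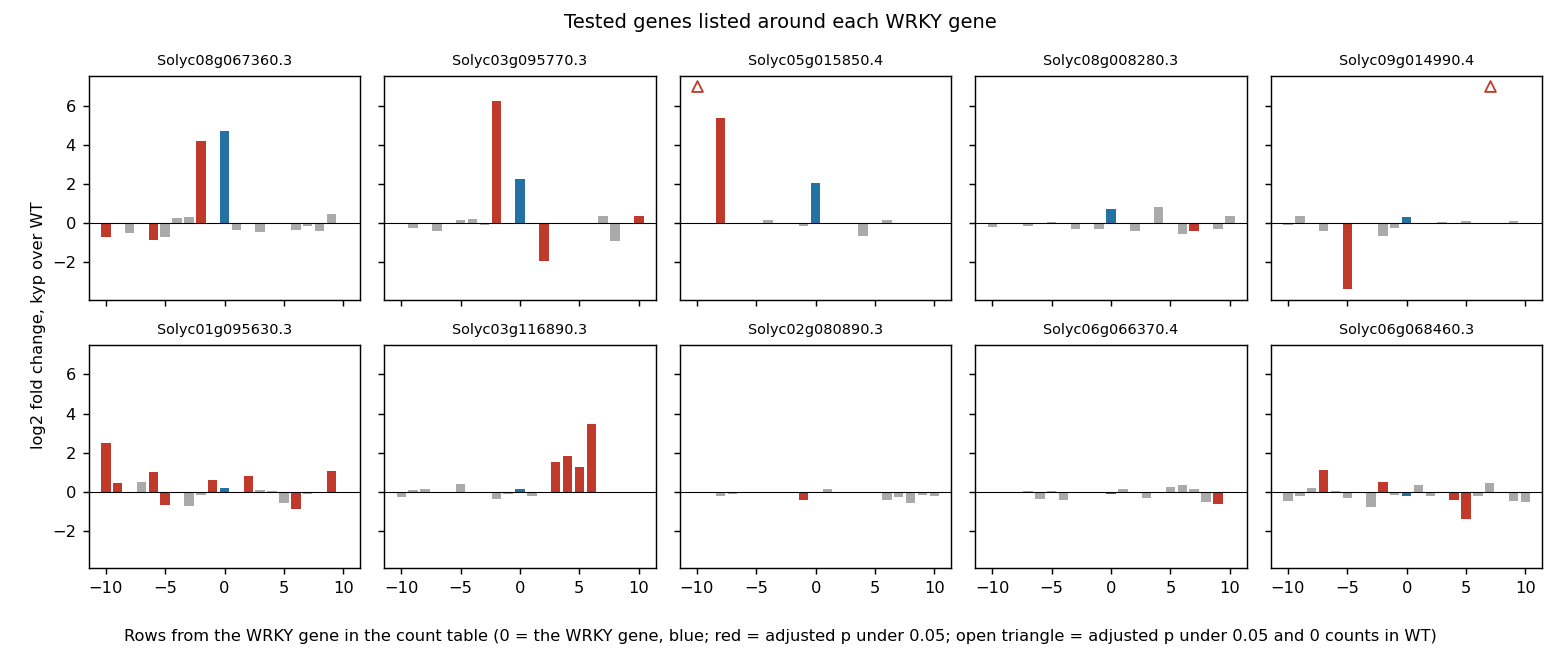
Log2 fold change, *kyp* over WT, of the tested genes listed up to 10 rows before and after each WRKY gene (blue, at 0). Red bars mark an adjusted p under 0.05 in edgeR, grey bars the other tested genes, and open triangles called genes with 0 counts in every WT library, for which no fold is drawn. Tall red bars stand 2 rows before Solyc08g067360.3 and Solyc03g095770.3, and 4 red bars in a row follow Solyc03g116890.3.

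The average pattern of the 10 genes over the 6 libraries, each gene centred on its own mean in log2 CPM, ran from -0.75, -0.29 and -0.46 in WT to 0.56, 0.43 and 0.51 in *kyp*. The 3 genes outside the list with the most similar pattern were Solyc06g063090.4, Solyc01g095030.3 and Solyc09g065620.3, each with a root-mean-square difference of 0.075 log2 units. Their log2 fold changes were 1.01, 1.11 and 0.93, and 4 of 20144 genes came within 0.1 log2 units of the pattern. The average does not describe a typical member, because it combines 3 genes with large changes and 5 with values close to 0.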

How the data were processed

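RNA-seq counts of 3 WT and 3 *kyp* leaf libraries were used. The authors deposited raw counts of reads on each gene, not normalized, from directional libraries made with 2 µg of RNA and read in pairs of 150 bp. Adapters were removed with Trimmomatic 0.38. The sources differ on the aligner, since the paper names Bowtie2 followed by removal of duplicates and of alignments with low mapping quality, and the submitters' processing notes list HISAT2 2.2.1, SAMtools 1.9 and featureCounts. An unspliced aligner would lower the counts of reads across exon junctions, and a mapping quality limit those of near-identical WRKY copies. The strand setting and the annotation release are not given in the sources used here, so overlapping antisense genes are uncertain. The number of per-sample columns left unused was 0.

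Genotypes were compared in R 4.3.3 with edgeR 4.0.16 (TMM, estimateDisp, glmQLFit, glmQLFTest, genotype as the only factor) after filterByExpr with a minimum count of 10 and a minimum total of 15, and p-values were adjusted by Benjamini-Hochberg over all tested genes at a threshold of 0.05. The test was checked on simulated counts with the same spread for every gene, where 157 of 200 planted changes were recovered. Of the 163 calls in that check, 6 were false. The check does not show how the test performs for the more variable members. Fold changes and SE are those of the unshrunk fit (for genes at 0 in a genotype, edgeR's value with its prior count and no SE), and log2 CPM for patterns used a prior count of 1. Libraries of a genotype differed by more than sampling noise (chi-square per degree of freedom 4.56 to 11.7), and each was counted as a replicate. The sources call them biological replicates and do not say how many plants each holds.

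The rule for named genes was all 10 members, their called neighbours within 2 rows and the 3 genes of most similar pattern. The background of genes at the filter level in every WT library, the wider window of 10 rows and the genes named from it, and the pairs of members set in ratio, were chosen after values were seen. The members and lists were chosen with earlier results of these data known. Other WRKY genes were to be listed from a reference table, but the RefSeq table (assembly SLM_r2.1) matched 0 of the 10 identifiers, so this list, symbols and sequences were not used. Neighbours follow the order of the table and not mapped positions. Alternatives were DESeq2 1.42.0, limma-voom (limma 3.58.1), upper-quartile scaling, library totals alone, no filter, a stricter filter, a replicate block and leaving out each library. Figures were drawn with matplotlib 3.10.9.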

Additional observations from a re-analysis of the deposited data

How the results depend on the processing

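The count of 4 WRKY genes higher and 0 lower in *kyp* was the same with DESeq2, limma-voom, upper-quartile scaling, library totals alone and no filter. Requiring at least 10 counts in every library removed Solyc08g067360.3 and Solyc05g015850.4 from the test and left 2 higher. Leaving out each library in turn gave from 3 to 6 higher and 0 lower in every fit, with 6 without WT replicate 3, where Solyc09g014990.4 and Solyc01g095630.3 passed the threshold. Over all genes, these 6 fits gave from 2265 to 3228 higher and from 1212 to 2203 lower genes.

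With the replicate number as a block, 2987 genes were higher and 1880 lower, with 4 and 0 WRKY genes, and no call among the members changed. Same-numbered libraries of the genotypes had correlations of deviations of 0.18, 0.07 and -0.05, so the numbers were not taken as pairs.

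Fitted values changed sign for 3 members that were not called in any fit. Leaving out 1 library gave log2 fold changes from -0.15 to 0.0044 for Solyc06g066370.4 (positive without *kyp* replicate 2), from -0.24 to 0.30 for Solyc02g080890.3 (positive without WT replicate 2, and 0.03 without *kyp* replicate 3) and from -0.053 to 0.42 for Solyc03g116890.3 (negative without *kyp* replicate 1). What caused these changes of sign was not tested. Of 128 values of single members under the alternatives, 119 kept their direction and their side of the threshold. Depth limits Solyc05g015850.4 and Solyc08g067360.3 most, with 23 and 19 counts over the 3 WT libraries.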
